A study of Mus musculus with 24 samples.

Results

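Phosphoinositide 3-kinases (PI3-kinases) add a phosphate to a membrane lipid and so make phosphatidylinositol trisphosphate, which recruits the protein kinase Akt to the membrane, and 9 genes of this pathway were followed through the early stages of thymocyte development. They are the catalytic subunits *Pik3ca* (p110α), *Pik3cb* (p110β), *Pik3cd* (p110δ) and *Pik3cg* (p110γ), the regulatory subunits *Pik3r1* (p85α) and *Pik3r5* (p101), the kinases *Akt1* and *Akt2*, and *Inpp5d*, which encodes SHIP, a phosphatase that removes the 5′ phosphate from the lipid product. The 9 genes were chosen by name, out of 18193 genes that have a probe set of their own on the array. They have 29 probe sets, of which 27 were bright enough to be tested (1 dim probe set each of *Pik3cd* and *Akt1* was not), and the probe set of each gene with the highest mean signal over all arrays was taken as its main one. A level read by one probe set cannot be set against a level read by another, because probe sets bind their targets unequally, so no order of the paralogues by abundance is given and only their changes are compared.

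The arrays held RNA of CD4 CD8 double-negative (DN) thymocytes, sorted by CD44 and CD25 into the successive stages DN1, DN2 and DN3. The TLX1 group consisted of 4 pools of *IgHμ-TLX1Tg Prkdc Scid/Scid* mice, which carry the *TLX1* homeobox gene under a B cell promoter, and the control group of 4 pools of *Prkdc Scid/Scid* mice. Both groups therefore lack DNA-PK function, the control line was on an outbred ICR background, to which the transgenic line was crossed from a CD1 background, the mice were 6 to 8 weeks old by the labels (the study's methods give a wider range), and 2 pools of each were female. Every pool combined 2 to 5 mice and gave 1 array at each stage, so the pool is the replicate, and the 24 arrays allow the stages to be compared within 8 pools and the genotypes with 4 pools against 4. The transgene is not driven by a T cell promoter, and its own expression was not analysed here.

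The values are MAS5 signals, which the authors' software scales to a trimmed mean of 150 on every array, here set to at least 1 and log2 transformed. Arrays of a group correlated with r of 0.90 to 0.96, and control pool 3 and TLX1 pool 2 stood apart at DN1. These pools are the ones that the study's cohort description lists with many cells outside the DN gates, and their summed signals of *Cd4* and *Cd8a* at DN1 were 1888 in TLX1 pool 2 and 1967 in control pool 3, against 98.5 to 225 in the others. Transcripts of *Cd3e*, an early T lineage gene, were present at DN1, where TLX1 pools read 1131 to 2845 and control pools 1416 to 3572. The labels describe the cells as CD3-negative, which concerns surface protein and cannot be set against RNA signals. An index of RNA quality, the 3′ over the 5′ signal of 2 control transcripts (log2), averaged 0.057 in TLX1 pools and 0.26 in control pools at DN1, 0.22 in TLX1 pools and 0.52 in control pools at DN2, and 0.18 in TLX1 pools and 0.53 in control pools at DN3. It was thus lower on average in TLX1 pools at every stage and higher at DN2 than at DN1 in both genotypes, and at DN3 the pools did not overlap (0.10 to 0.34 in TLX1 pools, 0.50 to 0.57 in control pools).

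Class I PI3-kinases pair a p110 catalytic subunit with a regulatory subunit. The p110α, p110β and p110δ subunits bind p85 proteins, whereas p110γ binds p101. The p110α and p110δ subunits act mainly below receptors with tyrosine kinase signaling, and p110γ acts mainly below G protein-coupled receptors. In the thymus the pathway is known to carry signals of the interleukin-7 receptor, of chemokine receptors and of the pre-T cell receptor, and p110δ and p110γ are best known from leukocytes.

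The windows upstream of the RefSeq start of 3 genes are shown because these genes changed most between stages in the comparisons below. *Pik3cb* and *Inpp5d* fell together and *Pik3r5* fell and rose again. Each window holds 250 bases of the GRCm38.p6 assembly, 5′ to 3′ on the strand of the gene. Capitals mark matches, on either strand, to the ETS core AGGAAG, the RUNX core TGTGGT, the GATA core GATAA and the E-box CANNTG, which are motifs of factor families of early T cells.
*Pik3cb*, chr9:99140212-99140461, minus strand: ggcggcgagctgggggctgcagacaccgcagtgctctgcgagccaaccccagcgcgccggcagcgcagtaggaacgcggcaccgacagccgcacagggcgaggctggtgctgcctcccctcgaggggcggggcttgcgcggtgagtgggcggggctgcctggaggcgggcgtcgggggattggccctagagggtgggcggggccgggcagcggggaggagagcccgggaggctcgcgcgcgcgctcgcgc
*Inpp5d*, chr1:87620062-87620311, plus strand: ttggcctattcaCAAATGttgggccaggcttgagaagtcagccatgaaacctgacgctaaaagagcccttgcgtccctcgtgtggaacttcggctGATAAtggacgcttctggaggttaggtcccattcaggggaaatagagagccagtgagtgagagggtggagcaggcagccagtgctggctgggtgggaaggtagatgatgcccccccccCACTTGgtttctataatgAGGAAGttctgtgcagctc
*Pik3r5*, chr11:68431875-68432124, plus strand: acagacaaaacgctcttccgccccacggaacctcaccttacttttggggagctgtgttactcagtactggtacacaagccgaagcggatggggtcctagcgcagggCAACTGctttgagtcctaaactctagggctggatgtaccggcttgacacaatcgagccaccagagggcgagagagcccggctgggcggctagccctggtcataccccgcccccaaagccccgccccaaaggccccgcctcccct
The *Inpp5d* window held 4 matches, which are 2 E-boxes, 1 GATA core and 1 ETS core, and that of *Pik3r5* held 1 E-box. The *Pik3cb* window held none of these letters, was 78.0% G and C, and its last 24 bases lay within the annotated gene. Over 32851 windows of the same length, 66.2% held an E-box, 29.5% an ETS core, 22.6% a GATA core and 14% a RUNX core, so a match in a window is a description of its letters and not a site of binding.

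To ask how the subunits differ between the sorted stages, the stages were compared within pools and averaged over both genotypes. Between DN1 and DN2, 4 of the 9 main probe sets fell and none rose. *Pik3cb* fell by 2.85 on the log2 scale (SE 0.26), *Inpp5d* by 1.45 (SE 0.13), *Pik3r5* by 1.13 (SE 0.08) and *Pik3r1* by 0.42 (SE 0.09). Their adjusted p were 4.8e-07, 3.0e-07, 2.0e-08 and 7.1e-04 (limma, Benjamini-Hochberg over 27022 probe sets). Of all 27022 probe sets, 31.2% fell and 28.5% rose at this step, and of the main probe sets of 12071 genes 30.9% fell and 35.1% rose. Counting all 27 tested probe sets of the 9 genes, 11 fell and 2 rose. Their median log2 fold change was -0.42, beside -0.06 over all probe sets. The split depends on the scaling. Median centring used the median of all 45037 probe sets of an array (15.1 to 24.3), which include those too dim to be tested. It moves the median of the 27022 tested ones from -0.06 to 0.29 at this step, a shift of 0.34. After it, 7 of the 27 rose and 8 fell. Of the 9 main probe sets 4 then rose (*Pik3cg*, *Akt2*, *Pik3ca* and *Akt1*) and 3 fell (*Pik3cb*, *Inpp5d* and *Pik3r5*). With the RNA quality index as a covariate, the falls were 3.05 for *Pik3cb*, 1.62 for *Inpp5d*, 1.20 for *Pik3r5* and 0.52 for *Pik3r1*, and each passed.

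**Figure D1:**
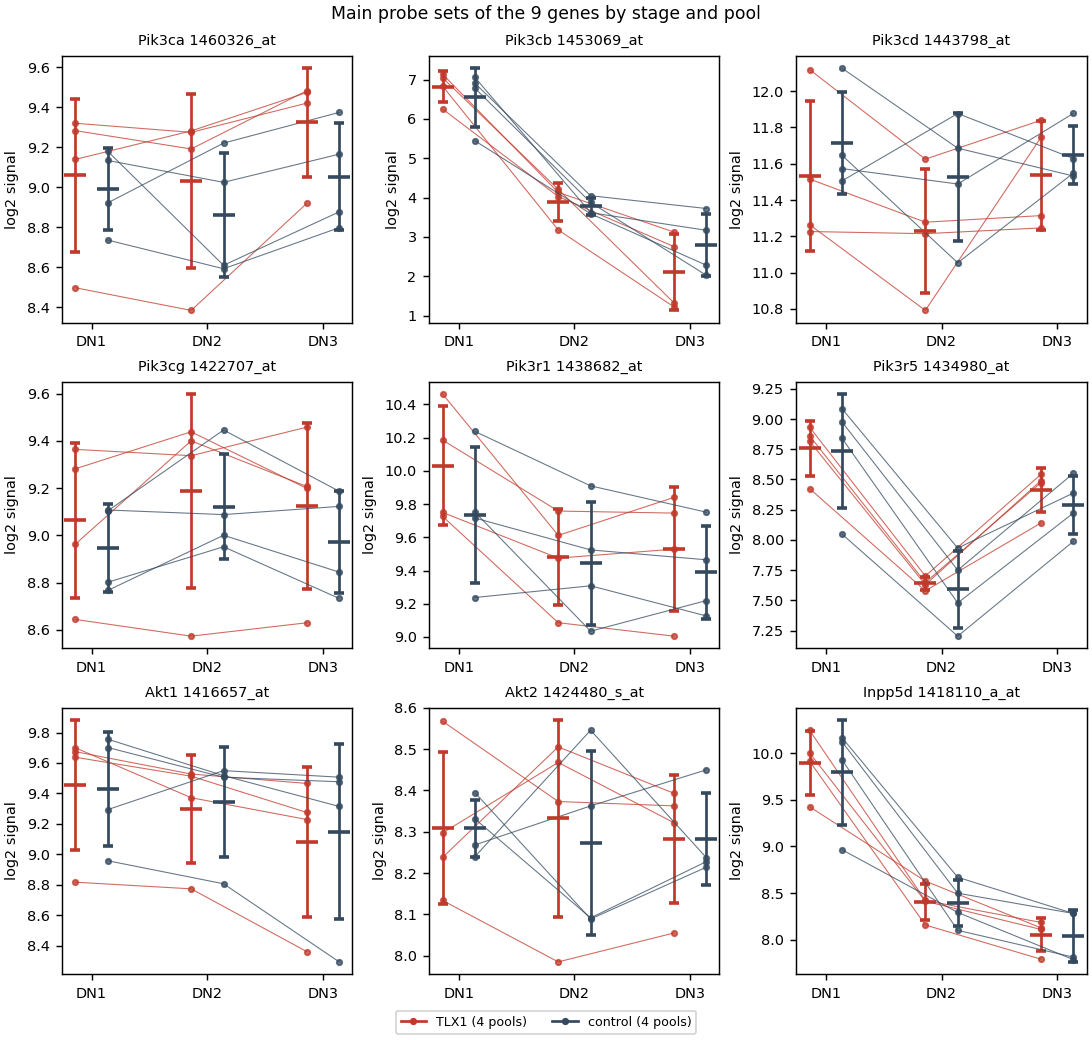
Log2 signal of the main probe set of each of the 9 genes (vertical axis, own scale per panel) at DN1, DN2 and DN3, with TLX1 pools in red to the left and control pools in dark blue to the right. Points are pools, thin lines join the 3 stages of a pool, and bars give the mean ± SD of 4 pools. *Pik3cb* and *Inpp5d* were lower in 8 of 8 pools at each later stage, and *Pik3r5* was lowest at DN2 in 8 of 8.

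*Pik3cb*, one of the broadly expressed catalytic subunits, had the steepest change of the 9. At DN1 its signals were 114, 76.2, 132 and 141 in TLX1 pools 1 to 4 and 109.9, 120.0, 43.5 and 133 in control pools. At DN2 they were 9.05, 16.3, 18.5 and 17.5 in TLX1 pools and 14.7, 16.5, 12.05 and 12.3 in control pools. Every pool was thus far lower at DN2, including the pair of pools that started lowest, TLX1 pool 2 and control pool 3. At DN3 the signals were 2.33, 6.75, 2.51 and 8.72 in TLX1 pools and 4.07, 13.2, 4.86 and 8.99 in control pools. The step to DN3 was a fall of 1.38 on the log2 scale (SE 0.26, adjusted p = 0.0054), again in 8 of 8 pools. Signals this low are near the background of the array, where the size of a fold change depends on the floor, and with 32 added to every signal this second fall was 0.28 with an adjusted p of 0.098. The whole difference between DN3 and DN1 was a log2 fold change of -4.23 (SE 0.26, adjusted p = 9.2e-09), or -1.83 with 32 added. The gene has a single probe set on the array, so no second reading was to be had.

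*Inpp5d* encodes SHIP, which lowers the lipid product of PI3-kinase in blood cells. Its main probe set read 1026, 688, 1214 and 965 in TLX1 DN1 pools and 1150.0, 1116, 499.9 and 975 in control DN1 pools. At DN2 it read 341, 396, 343 and 286 in TLX1 pools and 407, 362, 314 and 275 in control pools, with no overlap between the stages in either genotype. At DN3 the signals were 276, 279.5, 291 and 221 in TLX1 pools and 311, 311, 221 and 225 in control pools. All 8 pools were lower at DN3 than at DN2, by 0.22 to 0.51 on the log2 scale, but the average of -0.35 (SE 0.13) missed the threshold with an adjusted p of 0.090, against 0.014 without control pool 3 and TLX1 pool 2. From DN1 to DN3 the fall was 1.80 (SE 0.13, adjusted p = 3.2e-08). The second probe set of the gene read 171, 118, 142 and 129 in TLX1 DN1 pools and 135, 121, 79.9 and 115 in control DN1 pools, and 47.3, 48.6, 55.5 and 39.8 in TLX1 DN2 pools and 52.4, 55.1, 31.7 and 32.5 in control DN2 pools. It gave the same course, with a fall of 1.48 between DN1 and DN2 (SE 0.10, adjusted p = 1.5e-08), and the pair correlated with r = 0.95 over the 24 arrays.

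*Pik3r5*, the p101 adaptor that ties p110γ to G protein βγ subunits, was the gene whose course turned. It read 465, 344, 489 and 451 in TLX1 DN1 pools and 458, 543, 265 and 503 in control DN1 pools. At DN2 the signals were 201, 191, 208 and 198 in TLX1 pools and 178, 244, 147 and 215 in control pools. At DN3 they were 356, 282, 373 and 359.7 in TLX1 pools and 299, 335, 254 and 375 in control pools. The TLX1 pools lay close together at DN2, from 191 to 208, and every one of the 8 pools was higher at DN3 than at DN2. This rise of 0.73 on the log2 scale (SE 0.08, adjusted p = 6.9e-05) was the only one among the main probe sets at this step, at which 6.93% of all probe sets and 6.3% of the main ones rose while 4.07% and 5.87% fell. It held place 49 among the 27022 probe sets by p. At DN3 the gene was still below its DN1 level, by 0.40 (SE 0.08, adjusted p = 4.2e-04), a difference of -0.21 after median centring (adjusted p = 0.062).

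*Pik3r1*, the p85α subunit that stabilizes p110α, p110β and p110δ, was lower at both DN2 and DN3 than at DN1. Its main probe set read 1164, 861, 1411 and 847 in TLX1 DN1 pools and 1207, 862, 604 and 841 in control DN1 pools. At DN2 it read 866, 711, 782 and 543 in TLX1 pools and 962, 524, 634 and 736 in control pools, and at DN3 858, 738, 916 and 514 in TLX1 pools and 862, 596, 559 and 707 in control pools. The groups overlapped between stages, and 7 of 8 pools were lower at DN2 than at DN1, with control pool 3 the exception. The change between DN2 and DN3 was -0.00 (SE 0.09), and DN3 lay 0.42 below DN1 (SE 0.09, adjusted p = 7.1e-04). The other 3 probe sets fell further between DN1 and DN2, by 1.23, 0.73 and 1.43, and each passed the test. The steepest of them, 1451737_at, read 178, 166, 216 and 168 in TLX1 DN1 pools and 163, 270.4, 94.2 and 138 in control DN1 pools, against 83.8, 87.4, 77.5 and 46.2 in TLX1 DN2 pools and 66.2, 83.1, 31.5 and 50.0 in control DN2 pools. It had no overlap between these stages in either genotype. When each array was centred on its median, the main probe set no longer passed (-0.08, adjusted p = 0.53).

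**Figure D2:**
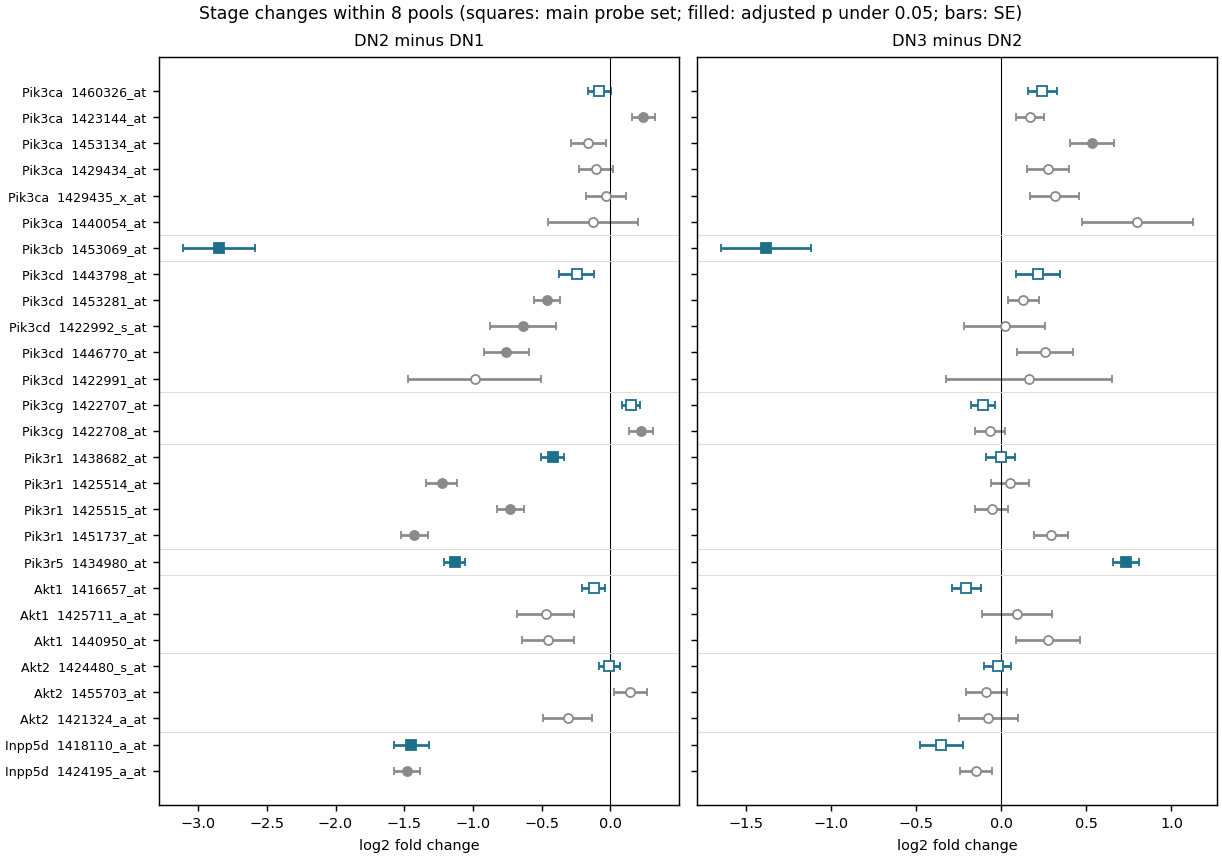
Log2 fold change of each of the 27 tested probe sets of the 9 genes between DN1 and DN2 (left) and between DN2 and DN3 (right), averaged over 8 pools; squares are main probe sets, circles the others, filled symbols have an adjusted p under 0.05, and bars are standard errors. *Pik3cb*, *Inpp5d*, *Pik3r5* and all 4 *Pik3r1* probe sets lie left of 0 in the left panel, and *Pik3r5* lies at 0.73 in the right one.

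None of the other 5 genes passed the test between DN1 and DN2 by its main probe set. *Pik3ca*, the ubiquitous p110α, had log2 fold changes of -0.08 (SE 0.08, adjusted p = 0.44; 0.27 and 0.018 after median centring) at this step and of 0.24 (SE 0.08, adjusted p = 0.078) at the next, the second one positive in 8 of 8 pools. This second step passed with the RNA quality index as a covariate (0.24, adjusted p = 0.042) and with the mean of the gene's probe sets (0.39, adjusted p = 0.012). It did not pass in the other 16 of 18 alternatives. The DN3 against DN1 difference passed in 5 of 18, among them the mean of the probe sets (0.35, adjusted p = 0.0035). *Pik3ca* signals were 564, 639, 623 and 361 in TLX1 DN1 pools and 562, 485, 579.6 and 426 in control DN1 pools, and at DN3 they were 711, 685, 715 and 484 in TLX1 pools and 574, 663, 470.1 and 445 in control pools. A second *Pik3ca* probe set, 1423144_at, rose by 0.24 between DN1 and DN2 (adjusted p = 0.023) and was 0.41 higher at DN3 than at DN1 (adjusted p = 7.8e-04). The probe sets of this gene did not read alike. Pool 4 was the lowest of its group in all 6 groups by the main probe set, whereas 1453134_at read 495, 457 and 529 in TLX1 pool 4 and 483, 507 and 605 in control pool 4 at DN1, DN2 and DN3, against 83.7 to 255 in all other arrays. The correlation of these readings over the 24 arrays was -0.67.

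*Pik3cd*, the leukocyte p110δ, was read by its main probe set at 2396, 2460.1, 2928 and 4448 in TLX1 DN1 pools and at 3206, 3048, 2908 and 4472 in control DN1 pools. At DN2 the signals were 2377, 1773, 2483 and 3159.5 in TLX1 pools and 2127, 2873, 3761 and 3295 in control pools, and at DN3 2429.7, 3435, 2547 and 3666 in TLX1 pools and 2996, 3763, 3167 and 2963 in control pools. The groups of all stages overlapped. The log2 fold change was -0.25 (SE 0.13, adjusted p = 0.12) between DN1 and DN2, and 0.21 (SE 0.13, adjusted p = 0.29) between DN2 and DN3. The 4 other tested probe sets were all lower at DN2 than at DN1 on average, and 3 of them passed, with falls of 0.46, 0.64 and 0.76. The dim 1422991_at did not pass. Its mean log2 signal was 4.21 at DN1 and 3.22 at DN2, lower in 6 of 8 pools. The mean of the 5 probe sets, this one included, fell by 0.62 (adjusted p = 0.0020). Without control pool 3 alone the main probe set passed as well (-0.34, adjusted p = 0.039), and so it did without control pool 3 and TLX1 pool 2 (-0.31, adjusted p = 0.037).

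*Pik3cg*, the catalytic partner of p101, did not show the low point of *Pik3r5* at DN2. Its signals were 623, 499, 659 and 400.1 in TLX1 DN1 pools and 550.3, 552, 446 and 436 in control DN1 pools. At DN2 they were 694, 676, 647 and 381 in TLX1 pools and 698, 544, 495 and 512 in control pools, and at DN3 588, 591, 703 and 396 in TLX1 pools and 583, 557, 425 and 459.7 in control pools. The groups of all stages overlapped, with TLX1 pool 4 the lowest at each stage. The log2 fold changes of 0.15 (SE 0.07, adjusted p = 0.072) and -0.11 (SE 0.07, adjusted p = 0.32) at the successive steps did not pass, while its other probe set rose by 0.22 between DN1 and DN2 (adjusted p = 0.039). The first step passed after median centring (0.49, adjusted p = 9.5e-05) and with the mean of both probe sets (0.19, adjusted p = 0.026).

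Of the kinases, *Akt1* was lower at DN3 than at DN1, and *Akt2* passed no test between stages by its main probe set. *Akt1*, whose product phosphorylates regulators of survival and growth, read 831, 817, 796 and 451 in TLX1 DN1 pools and 865, 833, 628 and 497 in control DN1 pools. At DN2 it read 662, 738, 731 and 438 in TLX1 pools and 732, 727, 749 and 448 in control pools, and at DN3 599.9, 707, 619 and 329 in TLX1 pools and 637, 712, 727 and 314 in control pools. Pool 4 was the lowest of its group in all 6 groups. *Akt1* was lower at DN3 than at DN1 by 0.33 (SE 0.08, adjusted p = 0.0044), in 7 of 8 pools, with neither single step past the threshold (-0.12 and -0.21). Without control pool 3, both steps passed (-0.18, adjusted p = 0.043, and -0.23, adjusted p = 0.043). The DN3 against DN1 difference lost its call with pool as a random block (adjusted p = 0.0504) and with no block (0.24), and after median centring the first step was 0.22 (adjusted p = 0.035). *Akt2*, which is best known for its part in glucose uptake, stayed within 253 to 379 in TLX1 arrays and 272 to 374 in control arrays over all stages, and its log2 fold changes were -0.01 and -0.02 at the successive steps (SE 0.08, adjusted p = 0.95 and 0.89). After median centring the first of these was 0.34 (adjusted p = 0.0031), and the DN3 against DN1 difference of *Akt1* was -0.14 (adjusted p = 0.19). Across all stages, then, 5 main probe sets were lower and none higher at DN3 than at DN1, against 25% of all probe sets lower and 30.1% higher, and 27.8% of the main ones lower and 34.7% higher. Of the 27, 12 were lower and 2 higher, or 6 lower and 8 higher after median centring, a shift of 0.19. By main probe sets, 2 were then lower (*Pik3cb* and *Inpp5d*) and 2 higher (*Pik3ca* by 0.35, adjusted p = 0.0033, and *Pik3cg* by 0.24, adjusted p = 0.023).

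Signals of a sorted fraction cannot tell fewer cells of a type from less RNA per cell, and the DN1 fraction also held transcripts of other lineages. Of the genes of the sort gates, *Cd44* fell by 3.72 (SE 0.18) between DN1 and DN2 and *Il2ra*, which encodes CD25, rose by 2.92 (SE 0.13). Between DN2 and DN3 their log2 fold changes were -2.86 and -0.01. All 5 tested natural killer (NK) cell markers and all 7 tested myeloid and dendritic markers fell between DN1 and DN2, with median log2 fold changes of -7.25 and -3.32. The summed NK signal at DN1 was 13410, 8058, 14628 and 12565 in TLX1 pools and 12368, 16638, 5810 and 15397 in control pools, against 1950 to 2494 in TLX1 pools and 1910 to 2612 in control pools at DN2. Nearly all of the DN2 sum was *Nkg7* (1900 to 2452 in TLX1 pools, 1852 to 2569 in control pools), which fell by only 0.58. The markers *Ncr1*, *Klrd1*, *Eomes* and *Klrk1* read 3.42 to 17.5 at DN2. TLX1 pool 2 and control pool 3 had the lowest NK sums of DN1, and they also had the lowest DN1 signals of *Pik3cb* (76.2 and 43.5), *Inpp5d* (688 and 499.9) and *Pik3r5* (344 and 265) in their groups. For *Pik3r1* the lowest were control pool 3 (604) and, among TLX1 pools, pool 4 (847). Early T sums were the highest of DN1 in TLX1 pool 2 (14527) and control pool 3 (15342), against 8558 to 9308 in the other TLX1 pools and 8397 to 11376 in the other control pools. Summed myeloid and dendritic signals at DN1 were 6836 to 13596 in TLX1 pools and 4621 to 8311 in control pools, and at DN2 961 to 1138 in TLX1 pools and 998 to 1095 in control pools. The part of these cells in the falls of *Pik3cb*, *Inpp5d*, *Pik3r5* and *Pik3r1* was not tested. Without the same pair of pools, 13 of the 27 probe sets were called between DN1 and DN2, as many as with them, and 5 in place of 3 between DN2 and DN3. After median centring, 1 rose and 4 fell between DN2 and DN3, against 2 that rose and 1 that fell as deposited. By main probe sets, 1 then rose (*Pik3r5*) and 3 fell (*Pik3cb*, *Inpp5d* and *Akt1*).

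Each genotype was also taken alone. *Pik3cb*, *Inpp5d* and *Pik3r5* fell between DN1 and DN2 in TLX1 pools (log2 fold changes of -2.93, -1.49 and -1.12) and in control pools (-2.76, -1.41 and -1.15). *Pik3r1* fell in TLX1 pools (-0.55, SE 0.12, adjusted p = 0.0020) and stood at -0.29 in control pools (SE 0.12, adjusted p = 0.065). Those 4 and 3 main probe sets compare with 25.9% and 24.2% of all main probe sets that fell in TLX1 and control pools. Between DN2 and DN3, *Pik3r5* rose in TLX1 pools (0.77, SE 0.11, adjusted p = 0.0021) and in control pools (0.70, SE 0.11, adjusted p = 0.0056), where 1.67% and 0.588% of main probe sets rose. *Pik3cb* fell in TLX1 pools (-1.78, SE 0.37, adjusted p = 0.023), as did 1.76% of main probe sets, and stood at -0.98 in control pools (SE 0.37, adjusted p = 0.25). The test of the difference itself, the genotype by stage interaction, called none of the 27 probe sets for any pair of stages. For *Pik3r1* between DN1 and DN2 it was -0.26 (SE 0.17, adjusted p = 1.0), and for *Pik3cb* between DN2 and DN3 -0.80 (SE 0.53, adjusted p = 1.0). None of the 27022 probe sets (0%) passed either of these interactions, and 3.6% and 2.89% had an unadjusted p under 0.05.

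Whether one paralogue gains on another was asked by the change of their log2 ratio within pools, in 18 comparisons of main probe sets with an exact two-sided sign-flip permutation test. The *Pik3cb* to *Pik3ca* ratio fell by 2.77 ± 0.76 (SD, n = 8 pools) between DN1 and DN2 and by 1.62 ± 0.85 between DN2 and DN3, in 8 of 8 pools each time. The *Pik3r5* to *Pik3r1* ratio fell by 0.71 ± 0.26 between DN1 and DN2 and rose by 0.74 ± 0.25 between DN2 and DN3, also in 8 of 8 pools. Over both steps it came back to a difference of 0.03 ± 0.20 from DN1. The *Pik3cg* to *Pik3ca* ratio fell by 0.35 ± 0.14 between DN2 and DN3 in 8 of 8 pools. With the *Pik3cb* to *Pik3ca* ratio over both steps (-4.39 ± 1.11) these 6 ratios had an exact p of 0.0078, the smallest that 8 pools can give, and an adjusted p of 0.023 over the 18. The size of the *Pik3cb* ratio rests on dim signals, and with 32 added to every signal its changes were -1.48, -0.51 and -1.99 (DN1 to DN2, DN2 to DN3 and DN1 to DN3), with the same adjusted p.

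The remaining 12 ratios did not pass. *Akt2* over *Akt1* was 0.30 ± 0.30 higher at DN3 than at DN1, in 7 of 8 pools (exact p = 0.039, adjusted p = 0.088), with control pool 3 at -0.39 and a mean of 0.40 without it (adjusted p = 0.031). *Pik3cg* over *Pik3cd* was 0.40 ± 0.42 higher at DN2 than at DN1, in 7 of 8 pools, with the same p, and 0.48 without control pool 3 (adjusted p = 0.031). Between DN2 and DN3 it was 0.32 lower on average (adjusted p = 0.11), and with quantile normalization both steps passed (0.41, adjusted p = 0.035, and -0.40, adjusted p = 0.020). *Pik3cg* over *Pik3ca* was 0.23 ± 0.33 higher at the same step in 7 of 8 pools (adjusted p = 0.13), and 0.31 without control pool 2 (adjusted p = 0.040). *Pik3cd* over *Pik3ca* had mean changes of -0.17, -0.03 and -0.19, with values in single pools from -0.70 to 0.94, so a change of the δ form relative to the α form was not resolved. Without control pool 3 the first of these was -0.32 (adjusted p = 0.031). When both control pool 3 and TLX1 pool 2 were left out, the lowest adjusted p was 0.056 and none of the 18 passed. Fewer pools raise the smallest p that this exact test can give, so the lost calls do not show weaker ratios. The *Pik3cb* to *Pik3ca* changes were then -3.11 (DN1 to DN2), -1.67 (DN2 to DN3) and -4.78 (DN1 to DN3). Those of *Pik3r5* to *Pik3r1* were -0.70 (DN1 to DN2) and 0.74 (DN2 to DN3), and *Pik3cg* to *Pik3ca* was -0.33 (DN2 to DN3).

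To ask what the transgene added, TLX1 pools were compared with control pools at each stage. None of the 27 probe sets of the 9 genes was called at DN1, DN2 or DN3. The test called 1, 1 and 5 of 27022 probe sets at these stages (0.0037%, 0.0037% and 0.0185%), all higher in TLX1. The main probe sets differed by -0.18 to 0.30 on the log2 scale at DN1, by -0.30 to 0.17 at DN2 and by -0.69 to 0.27 at DN3, and no main probe set had an unadjusted p under 0.05. At DN1 the main probe sets with the 3 smallest p were those of *Pik3r1* (0.30, SE 0.27), *Pik3cd* (-0.18, SE 0.25) and *Pik3cb* (0.27, SE 0.38), each with an adjusted p of 1.0. At DN2 they were those of *Pik3cd* (-0.30, SE 0.23), *Pik3ca* (0.17, SE 0.25) and *Pik3cb* (0.10, SE 0.25), again with adjusted p of 1.0.

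At DN3 the main probe set of *Pik3ca* stood at 0.27 (SE 0.19, adjusted p = 0.96), that of *Pik3cb* at -0.69 (SE 0.54, adjusted p = 0.97) and that of *Pik3r5* at 0.12 (SE 0.17, adjusted p = 1.0). For the main probe sets of all 9 genes the signals of TLX1 and control pools overlapped at every stage. Standard errors of 0.13 to 0.54 mean that differences of these sizes could not be resolved with 4 pools against 4.

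**Figure D3:**
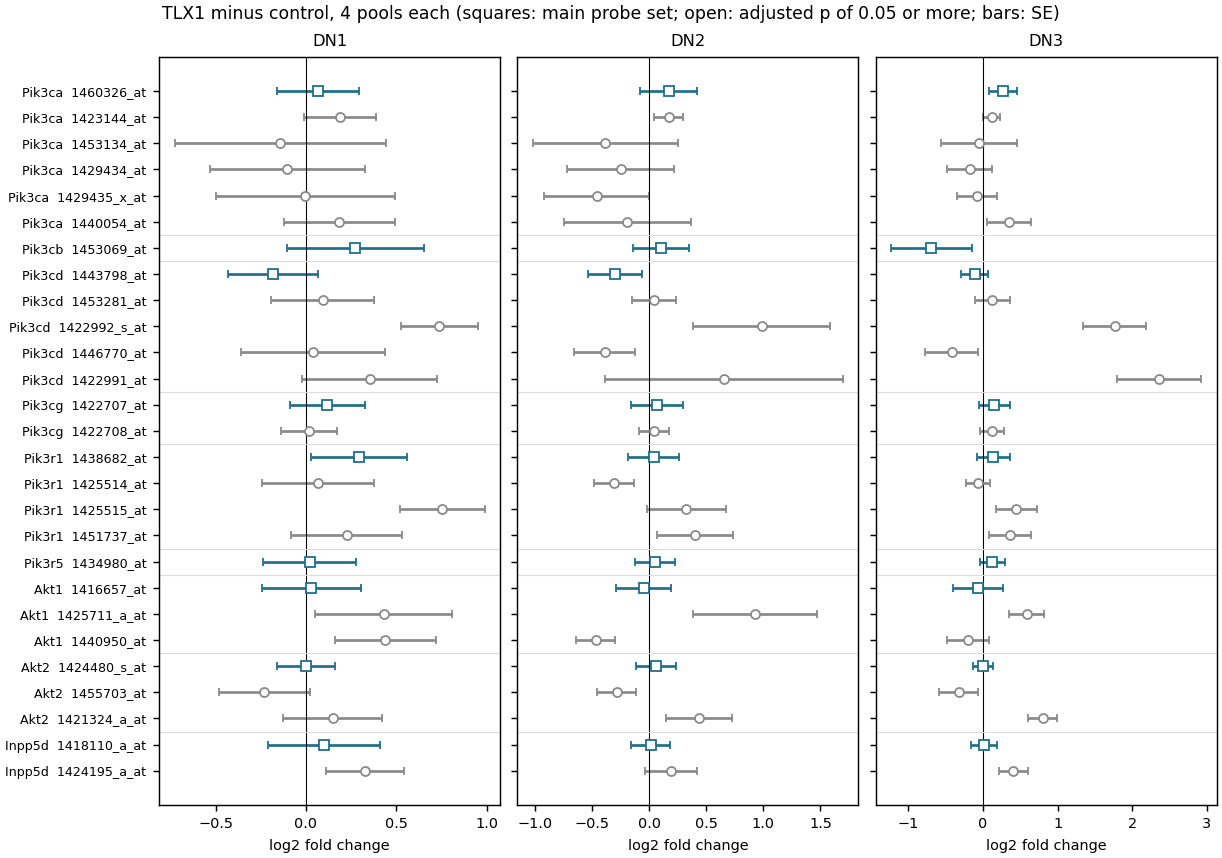
Log2 fold change of TLX1 over control pools for the 27 tested probe sets at DN1, DN2 and DN3 (4 pools against 4), with standard errors; squares are main probe sets, and no symbol is filled because none had an adjusted p under 0.05. Most lie near 0, and 2 *Pik3cd* probe sets reach 1.77 and 2.36 at DN3.

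Some dimmer probe sets stood further from 0 than the main ones. An unadjusted p under 0.05 was reached by 2 of the 27 at DN1, 1 at DN2 and 4 at DN3, where 1.72%, 3.53% and 6.02% of all probe sets reached it. The study's cut-off, applied here to the limma test, is an unadjusted p of at most 0.05 together with a fold of at least 1.4. It was met by 2 member probe sets at DN1, by none at DN2 and by 4 at DN3, all higher in TLX1, where 0.914%, 0.925% and 3.33% of all probe sets met it in that direction. *Pik3cd* supplied 3 of these 6. Its probe set 1422992_s_at read 182, 142, 183 and 115 in TLX1 DN1 pools and 80.1, 103, 80.5 and 106 in control DN1 pools. At DN3 it read 182, 119, 121 and 157 in TLX1 pools and 27.9, 83.5, 21.8 and 60.3 in control pools. The groups did not overlap at either stage, but did at DN2, with 143, 132, 108 and 64.3 in TLX1 pools and 65.2, 137, 16.2 and 58.9 in control pools.

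The log2 fold change of this probe set was 0.74 at DN1 (SE 0.21, adjusted p = 1.0; 0.80, SE 0.29, with the RNA quality index as a covariate) and 1.77 at DN3 (SE 0.42, adjusted p = 0.47), and the adjusted p at DN3 lay between 0.18 and 1.0 under 19 other choices of processing. *Pik3cd* 1422991_at, at the dim end, read 30.6, 24.8, 19.3 and 21.7 in TLX1 DN3 pools and 8.26, 11.6, 2.56 and 1.86 in control DN3 pools (2.36, SE 0.56, adjusted p = 0.48). With 32 added to every signal the value was 0.56. The probe sets 1422991_at and 1422992_s_at share a target record and correlated with r = 0.83 over the 24 arrays, so they are not independent readings. The main *Pik3cd* probe set did not share the difference, at -0.18, -0.30 and -0.11 for DN1, DN2 and DN3, and its correlation with 1422992_s_at over the 24 arrays was -0.28. Where these probe sets lie along the transcript was not analysed here.

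**Figure D4:**
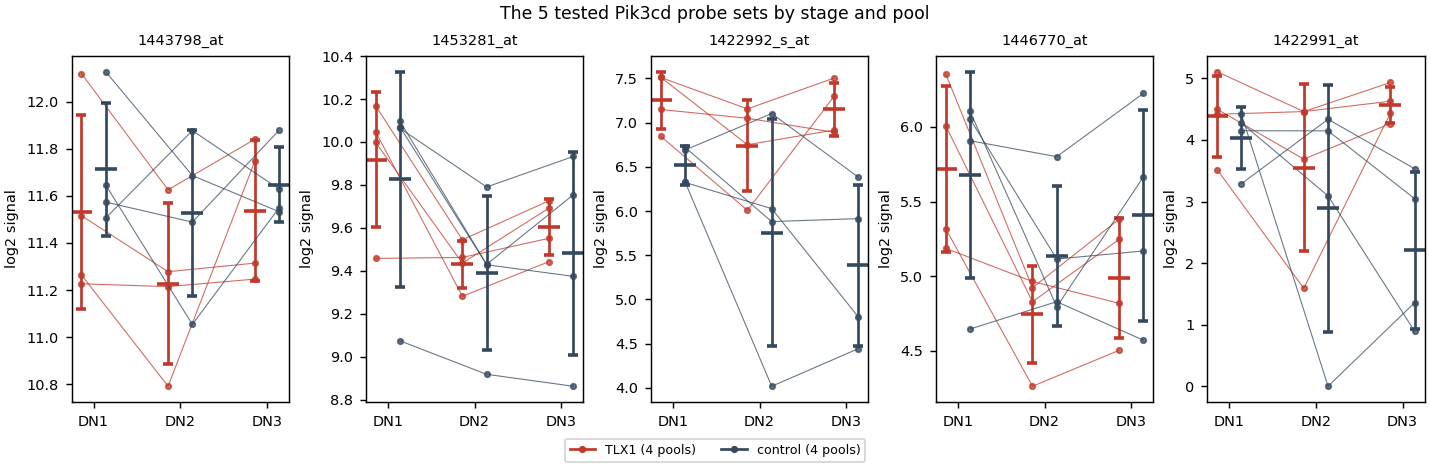
Log2 signal of the 5 tested *Pik3cd* probe sets at DN1, DN2 and DN3, with TLX1 pools in red to the left and control pools in dark blue to the right; points are pools and bars the mean ± SD of 4 pools. Groups are apart at DN3 for 1422992_s_at (119 to 182 in TLX1 pools, 21.8 to 83.5 in control pools) and overlap for the main probe set 1443798_at.

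Of the other 3, *Akt2* 1421324_a_at read 43.6, 30.9, 36.1 and 34.5 in TLX1 DN3 pools and 22.5, 17.6, 16.9 and 27.6 in control DN3 pools, with no overlap (0.80, SE 0.20, adjusted p = 0.49). *Akt1* 1425711_a_at read 159, 161, 154 and 90.2 in TLX1 DN3 pools and 97.1, 118, 76.2 and 80.6 in control DN3 pools (0.59, SE 0.23, adjusted p = 0.80). *Pik3r1* 1425515_at read 231, 161, 261 and 217 in TLX1 DN1 pools and 163, 112, 96.6 and 147 in control DN1 pools (0.75, SE 0.24, adjusted p = 1.0). Groups that do not overlap with TLX1 higher were thus found for 1 of 27 probe sets at DN1, none at DN2 and 3 at DN3, where 0.725%, 1.39% and 2.64% of all probe sets had them. In the other direction, *Akt1* 1440950_at was the one probe set with an unadjusted p under 0.05 at DN2, with 14.7, 17.5, 22.6 and 15.3 in TLX1 pools and 25.1, 25.4, 25.2 and 20.3 in control pools (-0.47, SE 0.17, adjusted p = 1.0).

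At DN3, the stage with most of these differences, the RNA quality index was lower in every TLX1 pool than in every control pool, so genotype and RNA quality cannot be told apart there. With the index as a covariate, the DN3 value of *Pik3cd* 1422992_s_at was 2.53 (SE 1.19), that of 1422991_at 2.76 (SE 1.64) and that of *Akt2* 1421324_a_at 0.48 (SE 0.55), while that of *Akt1* 1425711_a_at changed sign to -0.37 (SE 0.56). Control pool 3 at DN2, the array with the highest index (0.99), also gave the lowest signals of *Pik3cd* 1422992_s_at (16.2), *Pik3cd* 1422991_at (0.872) and *Akt1* 1425711_a_at (31.0) on any array. Among control pools at DN3 the order was otherwise, but their index spanned only 0.50 to 0.57, too narrow a range for an order to decide anything. Pool 2, with the highest index there (0.57), gave the highest signals of the same probe sets (83.5, 11.6 and 118). Whether RNA quality moves these signals was not tested.

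The other genes of the pathway were taken from a list of 36, of which 33 were analysed here and 32 were bright enough to be tested. Between DN1 and DN2, 9 rose and 11 fell, where 35.1% of the main probe sets of all genes rose and 30.9% fell, and between DN2 and DN3, 4 rose and 2 fell, where 6.3% rose and 5.87% fell. Among the other subunits and regulators, *Pik3ap1*, an adaptor that recruits PI3-kinase in B cells and myeloid cells, fell by 3.53 (SE 0.21) and then by 1.47 (SE 0.21), with adjusted p of 6.6e-09 and 7.7e-04. *Pik3ip1*, which encodes a membrane inhibitor of PI3-kinase, rose by 2.30 (SE 0.10) and then by 0.55 (SE 0.10), with adjusted p of 4.9e-10 and 0.0037. *Pik3r2*, which encodes p85β, fell by 0.52 between DN2 and DN3 (SE 0.12, adjusted p = 0.012). Of the 8 tested genes of that group, 2 rose and 4 fell between DN1 and DN2 (35.1% and 30.9% of all main probe sets). One of those that fell was *Pik3r6*, singled out after its values were seen because it encodes the other adaptor of p110γ (-1.77, SE 0.19, adjusted p = 1.7e-06).

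Among 7 phosphatases 1 rose and 3 fell at that step, at which 35.1% of all main probe sets rose and 30.9% fell. *Inppl1*, which encodes the SHIP paralogue SHIP2, fell by 1.19 (SE 0.085) between DN1 and DN2 and rose by 0.29 (SE 0.085) between DN2 and DN3, with adjusted p of 3.8e-08 and 0.042. *Inpp4a* fell by 1.27 (SE 0.11, adjusted p = 1.6e-07), and *Phlpp1*, a phosphatase of Akt itself, rose by 0.67 (SE 0.12, adjusted p = 2.2e-04). Among 12 effectors 4 rose and 2 fell, beside the same shares of all main probe sets. The transcription factors *Foxo1* and *Foxo3*, both inactivated by Akt, went in opposite directions, with *Foxo1* falling by 2.14 (SE 0.18, adjusted p = 1.7e-07) and *Foxo3* rising by 1.38 (SE 0.09, adjusted p = 2.0e-08). *Tsc1*, an inhibitor of mTOR, rose by 0.28 between DN2 and DN3 (SE 0.08, adjusted p = 0.037).

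Of 5 tested genes for the kinases that phosphorylate Akt (*Pdpk1* and components of the mTOR complexes), 2 rose and 2 fell between DN1 and DN2, against 35.1% and 30.9% of all main probe sets. *Mtor* rose by 0.33 (SE 0.08, adjusted p = 0.0019), and *Pdpk1*, whose product phosphorylates Akt in its activation loop, fell by 0.28 between DN1 and DN2 (SE 0.08, adjusted p = 0.0097) and rose by 0.28 between DN2 and DN3 (SE 0.08, adjusted p = 0.041). The median log2 fold change of the 32 genes was -0.02 between DN1 and DN2 and 0.06 between DN2 and DN3, beside 0.01 and 0.03 over the main probe sets of all genes. None of the 32 was called between TLX1 and control pools at any stage. They include *Gsk3b*, which the study lists as up-regulated by its own cut-off.

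**Figure D5:**
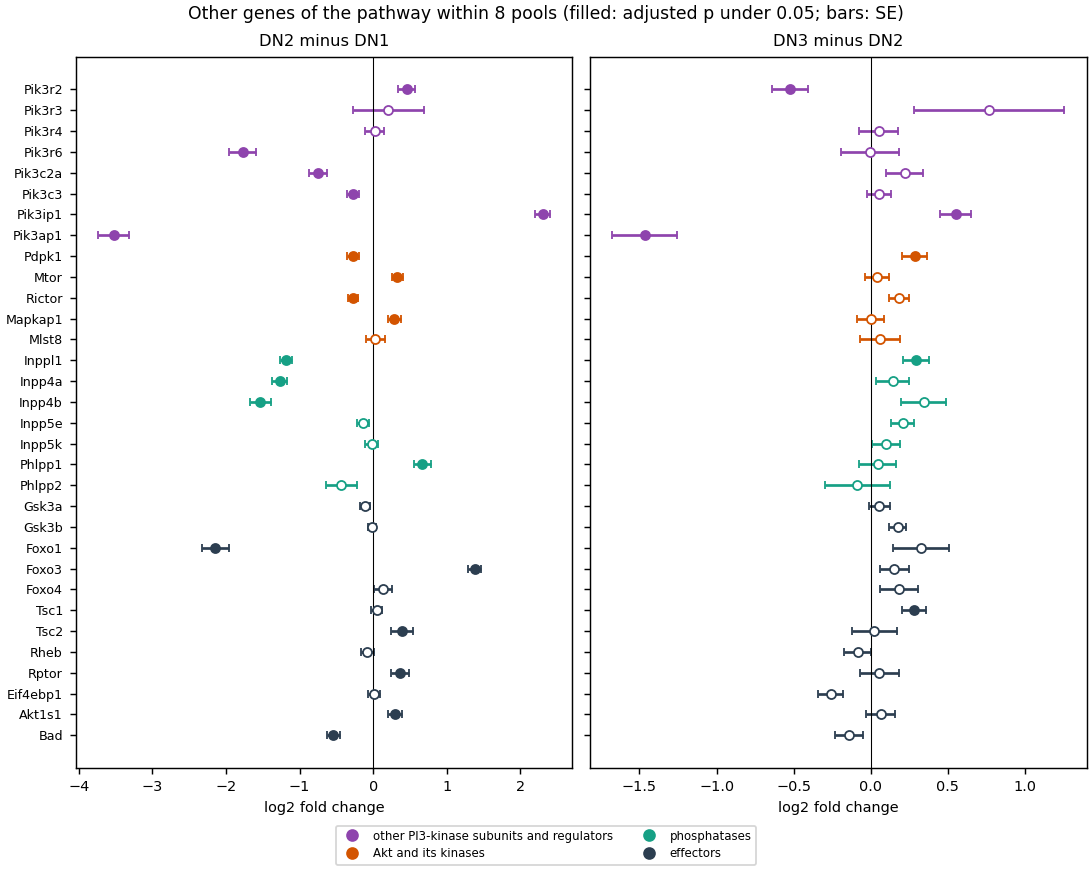
Log2 fold change of the 32 tested other genes of the pathway between DN1 and DN2 (left) and between DN2 and DN3 (right), averaged over 8 pools, in 4 groups by colour; filled symbols have an adjusted p under 0.05 and bars are standard errors. *Pik3ap1* and *Foxo1* lie furthest left and *Pik3ip1* and *Foxo3* furthest right in the left panel.

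Over the 24 arrays, the genes whose main probe sets were most like those of the 9, among 12071 genes, were found by Pearson's r of the log2 signals. For *Pik3cb* these were *Zbtb16*, *Fcgr2b* and *Inf2* (r = 0.97 each), and for *Inpp5d* they were *Prr13*, *Slco3a1* and *Esyt1* (r = 0.98 each). *Pik3cb* and *Inpp5d* correlated with each other at r = 0.92. For *Pik3r5* they were *Ablim1*, *Cnppd1* and *Kmt2c* (r = 0.92 to 0.93), and for *Akt1* *Ppp1r11*, *Mapk6* and *Txndc12* (r = 0.94 to 0.96). *Pik3r1* was most like *N4bp1*, *Ndst2* and *Serinc1* (r = 0.87 to 0.90). *Pik3ca* was most like *Mtg2*, *Plagl2* and *Cxxc1* (r = 0.89 to 0.92), *Pik3cg* like *Plagl2*, *Adar* and *Mavs* (r = 0.86 to 0.87), *Pik3cd* like *Rnf114*, *Acbd5* and *4932438A13Rik* (r = 0.82 to 0.83), and *Akt2* like *Crkl*, *Slc25a22* and *Cntrl* (r = 0.79 to 0.83). The points share stages and pools, so these values describe likeness over 8 pools at 3 stages only.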

How the data were processed

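RNA of 24 sorted thymocyte fractions was hybridised to Affymetrix mouse arrays, 1 array per pool and stage. The deposited values are signal intensity on a linear scale, which the authors made by MAS5 (submitters' processing notes name the Affymetrix Expression Console), with versions not given in the sources used here; the 2% trimmed mean of every array is 150, so a shift shared by all genes cannot be seen. Detection flags were not analysed here.

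Signals were floored at 1 and log2 transformed. Of 45101 probe sets, 64 array controls were used only for RNA quality, and the 60% of the other 45037 with the highest mean (27022) were tested. Array medians were 15.1 to 24.3. Gene names came from the platform annotation (34945 probe sets with 1 gene). Each stage had its own comparison of TLX1 with control, and stages were compared within pools (pool as a fixed block, both genotypes averaged), with limma 3.58.1 in R 4.3.3 and Benjamini-Hochberg adjustment over the 27022; an adjusted p under 0.05 is a call. Ratios of paralogues were tested with an exact sign-flip test over pools (Python 3.11.15, numpy 2.4.6, pandas 2.3.3; figures with matplotlib 3.10.9). The limma step was tested on simulated data. Pools are separate groups of mice, and 4 a group limit the precision.

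All 9 genes are named. At each stage the 3 smallest p of the TLX1 comparison are given, other probe sets where their unadjusted p is under 0.05, up to 4 called pathway genes per direction by p, and the 3 most alike genes. Promoter windows are from RefSeq (GRCm38.p6), where all 9 genes matched. The genes, lists and tests were chosen with earlier results of these data known. The alternatives were quantile normalization, median centring, no filter, a 40% filter, an offset of 32, leaving out control pool 3 and TLX1 pool 2, the RNA quality index or sex as a covariate, pool as a random block or no block, the replicate number as a block, the mean of a gene's probe sets, the methods' t-test, and leaving out each pool; those for the dimmer probe sets were chosen after seeing the data.

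Stages of a pool come from the same mice, and deviations of a pool at 2 stages correlated with r of 0.18 to 0.63. The labels pair TLX1 and control pools by nothing but the number, and deviations of pools of the same number correlated with r from -0.34 to 0.48. For the pools numbered 4, r was 0.48, 0.40 and 0.37 at DN1, DN2 and DN3, against -0.34 to 0.19 for the other numbers. What the pools numbered 4 have in common was not tested.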

Additional observations from a re-analysis of the deposited data

Results flagged for a closer look

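In 9 of 54 groups of 4 pools (9 genes, 6 groups, main probe sets), 1 pool lay so far from the other 3 that its gap exceeded Dixon's 95% critical value; chance alone flags about 1 in 20 such groups. Pool 4 accounts for 6 of the 9. In TLX1 pool 4, *Pik3ca* read 334 at DN2, against 584 to 622 in the other pools, and 484 at DN3, against 685 to 715. *Pik3cg* read 381 in TLX1 pool 4 at DN2, against 647 to 694. *Akt1* read 451 in TLX1 pool 4 at DN1, against 796 to 831, and in control pool 4 it read 448 at DN2, against 727 to 749, and 314 at DN3, against 637 to 727.

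The other 3 were single values. *Pik3cb* read 43.5 in control pool 3 at DN1, against 109.9 to 133, in the pool with the lowest NK sum at that stage. *Pik3r5* read 282 in TLX1 pool 2 at DN3, against 356 to 373. *Akt2* was highest in control pool 2 at DN3, at 349.7 against 297 to 302.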

How the results depend on the processing

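Over 17 to 18 alternatives each, the falls of *Pik3cb* (-3.12 to -1.55), *Inpp5d* (-1.69 to -1.10) and *Pik3r5* (-1.23 to -0.79) between DN1 and DN2 stayed called throughout. The count of called probe sets between DN1 and DN2 (13) was 10 to 13 without single pools. Between DN2 and DN3 (3) it was 5 with median centring, 5 without control pool 3 and TLX1 pool 2, and 2 to 4 without single pools. Between DN1 and DN3 (14) it was 8 with no replicate block and 11 to 16 without single pools. Of 18 paralogue ratios, 0 passed without control pool 3 and TLX1 pool 2, and 6 to 9 without single pools. Leaving out both pools also raises the smallest p that the sign-flip test can give, so the count of 0 does not show weaker ratios. Between TLX1 and control, and for the interactions, the count was 0 in every alternative, 0 to 0 without single pools, and 0 with the replicate number as a replicate block, which changed no call.

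Called results that lost their call were *Pik3r1* between DN1 and DN2 (adjusted p = 0.53 with median centring, 0.051 with no replicate block) and between DN1 and DN3 (0.057 and 0.053), *Pik3r5* between DN1 and DN3 (0.062 with centring), *Akt1* between DN1 and DN3 (0.19 with centring, 0.0504 with pool as a random block, 0.24 with no block) and *Pik3cb* between DN2 and DN3 (0.098 with an offset of 32). Among those gained was *Pik3ca* between DN1 and DN3 (0.22 without control pool 3, adjusted p = 0.020).

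No value that changed sign had been called as deposited. With median centring these were, between DN1 and DN2, *Akt1* (0.22), *Akt2* (0.34), *Pik3ca* (0.27) and *Pik3cd* (0.099), of which the first 3 then passed (adjusted p = 0.035, 0.0031 and 0.018), and between DN1 and DN3 *Akt2* (0.17) and *Pik3cd* (0.16). With quantile normalization they were *Pik3cd* between DN1 and DN3 (0.013), *Pik3r1* between DN2 and DN3 (0.010) and the *Pik3cd* to *Pik3ca* ratio between DN2 and DN3 (0.050). With the RNA quality index as a covariate, the stage values were 0.082 (*Akt2*) and 0.036 (*Pik3ca*) between DN1 and DN2, 0.058 (*Akt2*) between DN1 and DN3, and 0.0013 (*Pik3r1*) between DN2 and DN3. In the same fit the TLX1 against control values were 0.12 (*Pik3cd*) at DN1, -0.10 (*Pik3ca*) and 0.010 (*Pik3cd*) at DN2, and -0.35 (*Pik3ca*), 2.29 (*Pik3cb*) and -0.37 (*Akt1* 1425711_a_at) at DN3. With the mean of a gene's probe sets they were 0.055 (*Akt1*) and 0.071 (*Pik3r1*) between DN2 and DN3, and, TLX1 against control, 0.21 (*Pik3cd*) at DN1 and -0.16 (*Pik3ca*) and 0.20 (*Pik3cd*) at DN2. Without control pool 3 and TLX1 pool 2, *Pik3r1* was 0.017 between DN2 and DN3 and *Pik3cb* -0.0076 between TLX1 and control at DN2. The causes were not tested.

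Leaving out single pools turned values near 0. The ranges were, for *Akt2*, -0.063 to 0.039 (DN1 to DN2), -0.061 to 0.0037 (DN1 to DN3) and -0.041 to 0.033 (DN2 to DN3), for *Pik3cd* -0.11 to 0.058 (DN1 to DN3), for *Pik3r1* -0.043 to 0.018 (DN2 to DN3), and for *Pik3cb* between TLX1 and control -0.096 to 0.46 at DN1 and -0.0038 to 0.34 at DN2. For ratios they were -0.15 to 0.044 (*Pik3cd* to *Pik3ca*, DN2 to DN3), -0.012 to 0.13 (*Pik3cg* to *Pik3cd*, DN1 to DN3) and -0.028 to 0.054 (*Pik3r5* to *Pik3r1*, DN1 to DN3).

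Median centring used the median of all 45037 probe sets of an array, dim ones included. It moved the median of the tested probe sets by 0.34 between DN1 and DN2, by -0.15 between DN2 and DN3 and by 0.19 between DN1 and DN3. For TLX1 against control at DN2 the shift was 0.10. Quantile normalization moved it by 0.15 at the first step. The share of all calls that were higher was 47.7%, 58.7% with quantile normalization and 74.0% with centring between DN1 and DN2, 63.0%, 45.7% and 18.8% between DN2 and DN3, and 54.6%, 59.6% and 70.2% between DN1 and DN3. The dim signals of *Pik3cb* at DN3 limit the size of its fold change.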
